A study of Mus musculus with 8 samples.

Results

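The genes described here are 40 mouse genes whose proteins transcribe ribosomal RNA (rRNA), process and modify it, or assemble it into ribosomal subunits in the nucleolus. They were chosen by name from knowledge of the pathway, though with earlier results of these data known. All 40 were found among the 38215 genes of the deposited tables. All 40 also passed the filter on low counts, which kept 13397 genes for testing. The comparison asks how their RNA levels differed between regulatory T cells (Treg) of the bone marrow (BM-Treg) and of the spleen (SP-Treg).

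Bulk RNAseq had been performed on FoxP3+ cells sorted by FACS from naïve B6.FoxP3-GFP mice (labelled C57Bl/6 in genotype) aged 12 weeks, with 4 libraries from each tissue and no treatment. In these mice a green fluorescent protein marks cells that express FoxP3, the transcription factor that defines Treg, and the labels give no transplant and no deleted gene in either group. BM-Treg 1 to 3 were labelled female and batch 1, while BM-Treg 4 and all 4 SP-Treg libraries were labelled male and batch 3. Sex and batch thus cannot be told apart, and each largely follows tissue. The study's methods name female mice unless stated otherwise and no males for the RNAseq, so that the male labels differ from them. The titles of the spleen libraries carry pairs of numbers of unstated meaning, which overlap between libraries if read as ranges. Whether any libraries share animals is not given, so that p-values measure the spread between these libraries.

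A ribosome is built around rRNA that RNA polymerase I transcribes from repeated genes in the nucleolus. Small nucleolar RNAs (snoRNAs) guide protein complexes (snoRNPs) to the precursor, where box C/D snoRNPs methylate sugars and box H/ACA snoRNPs convert uridine to pseudouridine. A large set of helicases, GTPases, nucleases and scaffold proteins then folds and cuts the precursor into the RNA of the small and the large subunit. T cells raise ribosome production when they are activated and grow, and the transcription factor MYC is known to activate many of the genes involved.

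Total expected counts were between 12427136 and 21921252 per library, and the share on mitochondrial genes was between 24.5% and 28.7% in BM-Treg and between 19.2% and 32.9% in SP-Treg. Levels are given as CPM, counts scaled to library sizes that were normalized by TMM. Differences are given as log2 fold changes of BM-Treg over SP-Treg, with their standard error (SE) computed from edgeR's quasi-likelihood test. Foxp3, Il2ra, Ctla4, Ikzf2, Tnfrsf18, Cd4 and Cd3e, which mark Treg, were each at 227 CPM or more in every library, and none of the 7 passed the test. Summed CPM of 8 erythroid markers, mostly globins, was between 12.9 and 32.7 in BM-Treg, 1.94 in SP-Treg 1 and between 188 and 455 in SP-Treg 2 to 4, and that of 8 B cell markers was between 11.7 and 15.4 in BM-Treg and 8.13, 100.4, 22.9 and 18.0 in SP-Treg 1 to 4. Jchain, which defines plasma cells, was at most 0.394 CPM in BM-Treg and was 0.216, 24.7, 8.96 and 5.66 CPM in SP-Treg 1 to 4. SP-Treg 1 and SP-Treg 2 therefore stood apart from the other spleen libraries in these markers of other cells.

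Ribosome biogenesis genes were on balance lower in BM-Treg. Of the 40 genes, 12 passed the threshold (adjusted p under 0.05) as lower in BM-Treg and 0 as higher, where 5.02% of all 13397 genes tested were called lower and 3.72% higher (8.75% in either direction). In all, 38 of 40 log2 fold changes were below 0, where 51.4% of all genes were, and their median was -0.36 (quartiles -0.49 and -0.21), where the median of all genes was -0.01. At an unadjusted p under 0.05, 19 genes were lower and 0 were higher (12.4% and 10.9% of all genes). For 15 genes every BM-Treg library was below every SP-Treg library, and for 0 genes every BM-Treg library was above (8.57% and 7.58% of all genes). In these bulk samples, fewer cells that express a gene and less RNA of it in each cell cannot be told apart.

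**Figure D1:**
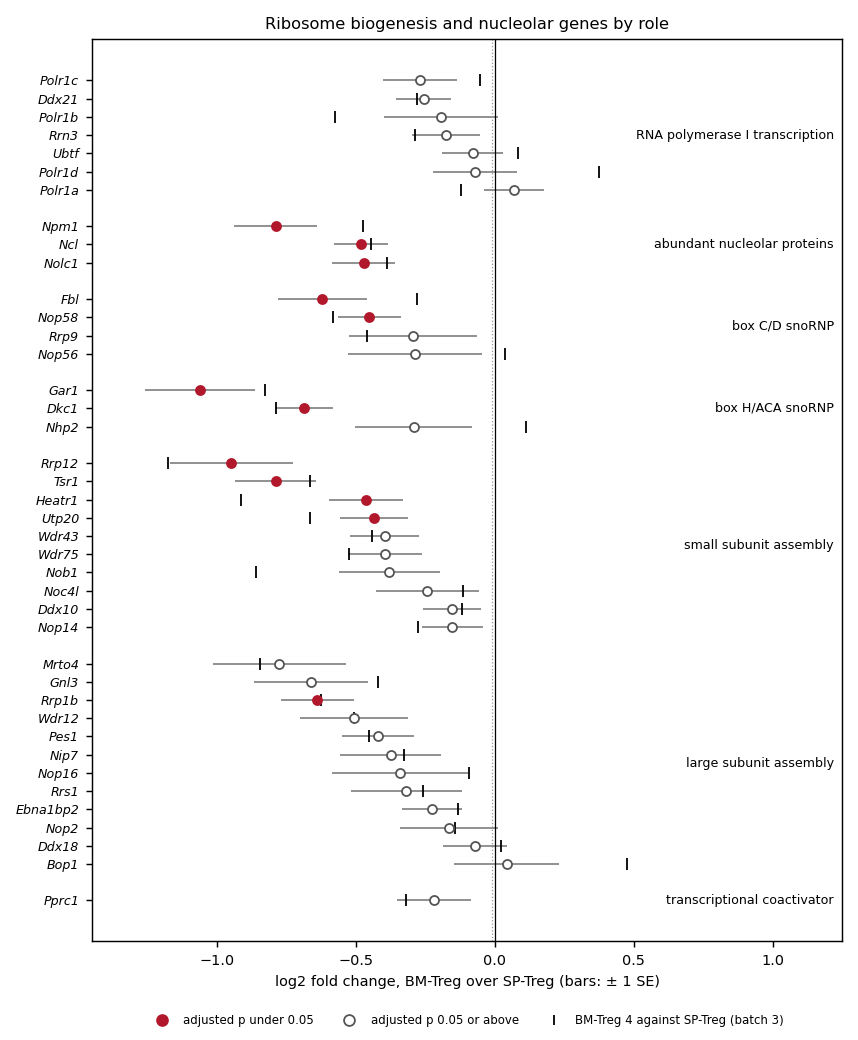
Log2 fold change of BM-Treg over SP-Treg (x axis, circles, with bars of 1 SE from edgeR) for the 40 genes grouped by role (y axis). Filled circles mark the 12 genes with an adjusted p under 0.05, vertical ticks mark the value from BM-Treg 4 against SP-Treg alone, and the dotted line marks the median of all genes tested, -0.01. All 12 filled circles lie left of 0, and none belongs to RNA polymerase I transcription.

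The counts differed between roles. All 3 abundant nucleolar proteins were called lower, as were 2 of 3 genes of box H/ACA snoRNPs, 2 of 4 of box C/D snoRNPs, 4 of 10 of small subunit assembly and 1 of 12 of large subunit assembly. None of the 7 genes of RNA polymerase I transcription was called, nor was the coactivator Pprc1. The median log2 fold change was lowest for box H/ACA snoRNPs at -0.69, followed by -0.48 for abundant nucleolar proteins, -0.40 for small subunit assembly, -0.37 for box C/D snoRNPs, -0.36 for large subunit assembly and -0.17 for RNA polymerase I transcription. These differences between roles were not tested. By length-scaled level (FPKM, the mean of all 8 libraries), Npm1 was the highest of the 40 genes at 724, followed by Nop56 at 176, Polr1d at 78.6, Ncl at 71.1 and Gar1 at 54.98, and Rrp12 was the lowest at 1.14.

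To show the control regions of genes that were called and of genes that were not, the 250 bases before the transcription start are printed for 4 genes, from RefSeq on GRCm38.p6 and on the strand of the gene. Dkc1 (chrX:75095604-75095853, plus strand) and Gar1 (chr3:129831397-129831646, minus strand) are the called genes of box H/ACA snoRNPs. Rrn3 (chr16:13780449-13780698, plus strand) and Nop2 (chr6:125131633-125131882, plus strand) were not called, and they are the genes of the set with a CACGTG sequence, the E-box that MYC and related factors can bind, before their start. Capitals mark every match, on either strand, to CACGTG, CCGGAAGT (an ETS motif), CCAAT and GGGCGG (a GC box).
Dkc1: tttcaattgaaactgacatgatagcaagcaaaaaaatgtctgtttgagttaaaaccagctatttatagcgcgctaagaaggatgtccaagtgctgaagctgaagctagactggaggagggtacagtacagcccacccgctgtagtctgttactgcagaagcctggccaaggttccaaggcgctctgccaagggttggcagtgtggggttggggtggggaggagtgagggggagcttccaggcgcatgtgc
Gar1: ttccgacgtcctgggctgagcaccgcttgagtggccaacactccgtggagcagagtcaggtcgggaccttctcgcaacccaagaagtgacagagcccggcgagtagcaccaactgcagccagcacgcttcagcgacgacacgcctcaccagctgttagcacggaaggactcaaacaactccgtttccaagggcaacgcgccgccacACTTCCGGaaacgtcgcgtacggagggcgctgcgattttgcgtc
Rrn3: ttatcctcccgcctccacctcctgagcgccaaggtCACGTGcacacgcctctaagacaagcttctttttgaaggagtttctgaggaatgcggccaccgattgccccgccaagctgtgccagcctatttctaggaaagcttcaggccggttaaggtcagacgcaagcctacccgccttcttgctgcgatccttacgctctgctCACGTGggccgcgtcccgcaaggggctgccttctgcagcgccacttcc
Nop2: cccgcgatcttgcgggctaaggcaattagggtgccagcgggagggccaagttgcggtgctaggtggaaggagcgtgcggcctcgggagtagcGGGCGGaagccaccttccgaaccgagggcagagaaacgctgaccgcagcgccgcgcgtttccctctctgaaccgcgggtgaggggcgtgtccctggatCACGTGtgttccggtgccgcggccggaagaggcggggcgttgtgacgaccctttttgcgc
Rrn3 has CACGTG at 215 and 48 bases before its start and Nop2 at 60 bases before, while the printed region of Dkc1 has none of the 4 motifs and that of Gar1 has CCGGAAGT on the opposite strand.

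RefSeq windows of 250 bases before to 50 bases after the start were at hand for 35 of the 40 genes, and Npm1, Fbl, Rrp12, Bop1 and Rrs1 had none. The motifs were chosen after the results had been seen, and a match is a description of the letters only. Some genes had several windows, and a gene was counted if any of them matched, while shares of all windows are per window. CACGTG was found in 6 of the 35 genes (17.1%: Rrn3, Utp20, Wdr43, Tsr1, Nop2 and Pes1). Its share was 11.9% among 8584 tested genes with a window and 7.15% among all 32851 windows. CACGTG was in the windows of 2 of the 9 called genes (Tsr1 and Utp20) and of 4 of the 26 others. CCGGAAGT was found in 8 of 35 (22.9%, against 9.53% of tested genes and 3.89% of all windows), 3 of them called (Gar1, Heatr1 and Tsr1). GGGCGG was found in 25 of 35 genes (68.2% of tested genes and 35.7% of all windows) and CCAAT in 12 (43.5% and 37.4%). Motifs were counted on both strands, and matches to different motifs could overlap.

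The abundant nucleolar proteins fell together. Ncl (chr1:86344719-86359455, minus strand) encodes nucleolin, which binds ribosomal chromatin and pre-rRNA. Its level was 500.1, 463, 487 and 499.6 CPM in BM-Treg 1 to 4 and 684, 617, 688 and 735 CPM in SP-Treg 1 to 4. It was lower in BM-Treg by 28.4% (log2 fold change -0.48, SE 0.10, edgeR adjusted p = 0.0067), and the lowest spleen library exceeded the highest marrow library. Npm1 (chr11:33152287-33163206, minus strand) encodes nucleophosmin, a chaperone that also carries ribosomal subunits out of the nucleolus, and it is known to have many processed pseudogenes, so that its expected counts are uncertain. Its level was 435, 443, 521 and 618 CPM in BM-Treg 1 to 4 and 682, 791, 1018 and 991 CPM in SP-Treg 1 to 4. The tissues did not overlap, although SP-Treg 1 was closer to BM-Treg 4 than to SP-Treg 3 and 4 (log2 fold change -0.79, SE 0.15, edgeR adjusted p = 0.0047). Nolc1 (chr19:46075863-46085528, plus strand) encodes a phosphoprotein that binds snoRNPs, and it was read at 26.1, 24.3, 25.4 and 27.1 CPM in BM-Treg 1 to 4 and 33.2, 33.3, 36.7 and 39.5 CPM in SP-Treg 1 to 4. Every BM-Treg library was below every SP-Treg library (log2 fold change -0.47, SE 0.11, edgeR adjusted p = 0.018). BM-Treg 4 alone against the spleen libraries of its batch gave log2 fold changes of -0.44 for Ncl, -0.48 for Npm1 and -0.39 for Nolc1, with no test.

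**Figure D2:**
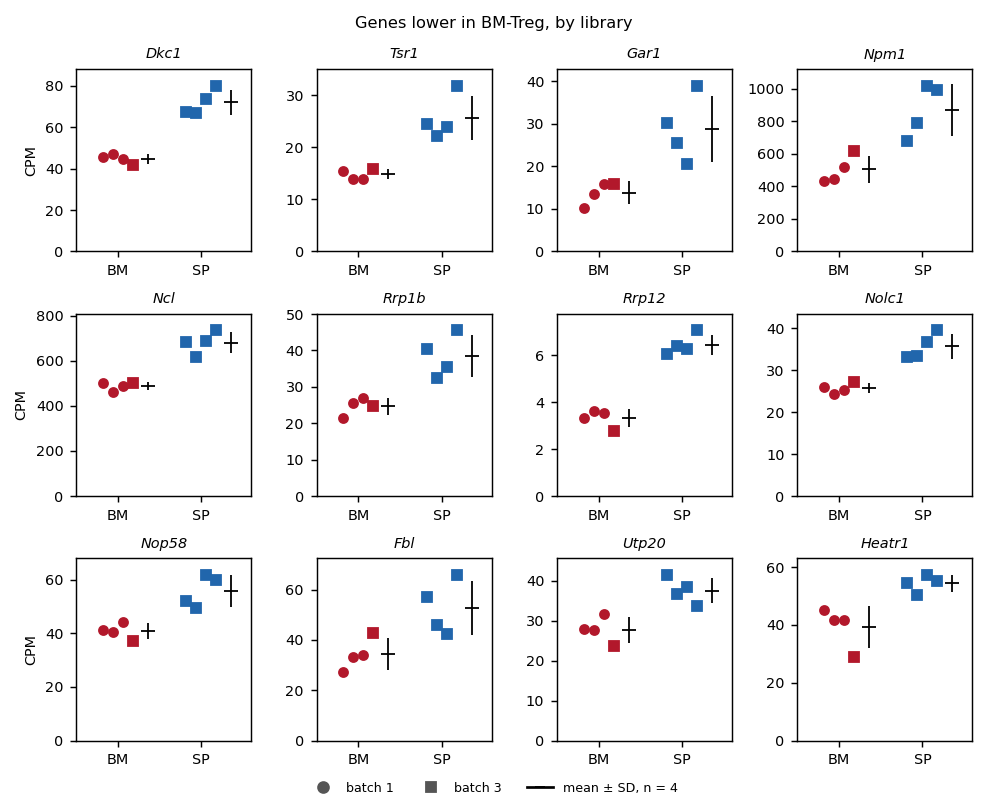
CPM (y axis, from 0) of the 12 genes called lower in BM-Treg, by tissue (x axis), with a point for each library and the mean ± SD (n = 4) beside it. Circles are batch 1 and squares are batch 3. For 11 of the 12 genes the tissues do not overlap, and in Fbl the BM-Treg 4 library, at 42.7 CPM, is above SP-Treg 3, at 42.3 CPM.

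Box H/ACA snoRNPs contain dyskerin (Dkc1), the pseudouridine synthase, with Gar1 and Nhp2 as core partners, and the same proteins are part of telomerase. Dkc1 (chrX:75095854-75109777, plus strand) had the smallest p of the 40 genes. Its level was 45.5, 47.2, 44.8 and 41.6 CPM in BM-Treg 1 to 4 and 67.5, 66.8, 73.9 and 80.04 CPM in SP-Treg 1 to 4. These amount to 44.8 ± 2.35 CPM in marrow and 72.1 ± 6.19 CPM in spleen (SD, n = 4), a decrease of 37.9% (log2 fold change -0.69, SE 0.10, edgeR adjusted p = 0.0014), and the tissues were far apart beside their spread. Dkc1 lies on the X chromosome, and Mpp1, which overlaps it on the other strand, had a log2 fold change of -0.21 (edgeR adjusted p = 0.27). Gar1 (chr3:129824912-129831396, minus strand) had the largest log2 fold change of the set, and its level was 10.1, 13.5, 15.9 and 15.7 CPM in BM-Treg 1 to 4 and 30.2, 25.5, 20.6 and 38.9 CPM in SP-Treg 1 to 4. It was lower by 52.1% (log2 fold change -1.06, SE 0.20, edgeR adjusted p = 0.0046), with no overlap, and the spleen libraries were more spread than the marrow libraries. Nhp2 was not called, with 7.14 ± 1.49 CPM in marrow and 8.69 ± 1.52 CPM in spleen (log2 fold change -0.29, SE 0.21, edgeR adjusted p = 0.44), and BM-Treg 4 was above SP-Treg 1, 2 and 3. Within batch 3 the log2 fold changes were -0.79 for Dkc1, -0.83 for Gar1 and 0.11 for Nhp2.

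Box C/D snoRNPs are built from the methyltransferase fibrillarin (Fbl) and the scaffold proteins Nop56 and Nop58, and Rrp9 binds the U3 snoRNA that acts in cleavage. Fbl (chr7:28169748-28179269, plus strand) was read at 27.3, 33.4, 34.1 and 42.7 CPM in BM-Treg 1 to 4 and 57.05, 45.7, 42.3 and 65.8 CPM in SP-Treg 1 to 4. It was called lower although the tissues overlapped, since BM-Treg 4 was above SP-Treg 3 (log2 fold change -0.62, SE 0.16, edgeR adjusted p = 0.027). Nop58 (chr1:59685006-59711510, plus strand) was read at 41.2, 40.5, 44.2 and 37.1 CPM in BM-Treg 1 to 4 and 52.1, 49.6, 61.7 and 59.8 CPM in SP-Treg 1 to 4. No library of one tissue reached into the range of the other (log2 fold change -0.45, SE 0.11, edgeR adjusted p = 0.022). Nop56 had the highest length-scaled level of these genes, and it was read at 149.9, 151, 163 and 195 CPM in BM-Treg 1 to 4 and 119, 165, 281 and 239 CPM in SP-Treg 1 to 4. SP-Treg 1 was the lowest of all 8 libraries and SP-Treg 3 the highest, so that the spleen spanned the whole range and Nop56 was not called (log2 fold change -0.29, SE 0.24, edgeR adjusted p = 0.53). Rrp9 was not called either, with 4.60 ± 0.662 CPM in marrow and 5.65 ± 1.04 CPM in spleen (SD, n = 4) and an edgeR adjusted p = 0.48. Within batch 3 the log2 fold changes were -0.28 for Fbl, -0.58 for Nop58, 0.04 for Nop56 and -0.46 for Rrp9.

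Genes of small subunit assembly were all below 0, from -0.95 for Rrp12 to -0.15 for Nop14, and 4 of the 10 were called. Tsr1 (chr11:74898071-74909342, plus strand) encodes a GTPase-like factor of late small subunit precursors. Its level was 15.5, 13.9, 13.98 and 15.9 CPM in BM-Treg 1 to 4 and 24.4, 22.1, 23.9 and 31.8 CPM in SP-Treg 1 to 4. It decreased by 42.1% (log2 fold change -0.79, SE 0.15, edgeR adjusted p = 0.0039), and SP-Treg 4 was the highest library by a wide margin. Rrp12 (chr19:41862852-41896153, minus strand) acts in the processing and export of pre-ribosomes, and it was read at only 3.34, 3.62, 3.55 and 2.76 CPM in BM-Treg 1 to 4 and 6.04, 6.38, 6.28 and 7.06 CPM in SP-Treg 1 to 4. Its lowest library had 33 counts, and the tissues were nonetheless clearly separate (log2 fold change -0.95, SE 0.22, edgeR adjusted p = 0.016). Utp20 (chr10:88746607-88826814, minus strand), a large scaffold of the small subunit processome, was read at 27.96, 27.8, 31.6 and 23.6 CPM in BM-Treg 1 to 4 and 41.4, 36.6, 38.4 and 33.7 CPM in SP-Treg 1 to 4. Every marrow library was below the spleen, BM-Treg 3 by a small margin (log2 fold change -0.44, SE 0.12, edgeR adjusted p = 0.039). Heatr1 (chr13:12395398-12438677, plus strand) belongs to the part of the processome that is also needed for rRNA transcription, and it was read at 45.2, 41.6, 41.7 and 28.8 CPM in BM-Treg 1 to 4 and 54.6, 50.5, 57.3 and 55.1 CPM in SP-Treg 1 to 4. BM-Treg 4 was far below the other marrow libraries, and all 4 were below the spleen (log2 fold change -0.46, SE 0.13, edgeR adjusted p = 0.044). Within batch 3 these genes had log2 fold changes of -0.67 (Tsr1), -1.18 (Rrp12), -0.66 (Utp20) and -0.91 (Heatr1).

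The other 6 genes of small subunit assembly did not pass. Wdr75, which with Wdr43 belongs to the same part of the processome as Heatr1, was read at 20.6, 20.6, 19.9 and 17.9 CPM in BM-Treg 1 to 4 and 23.8, 22.99, 26.2 and 31.1 CPM in SP-Treg 1 to 4. Its tissues did not overlap (log2 fold change -0.40, SE 0.13, edgeR adjusted p = 0.083). Wdr43 had 44.1 ± 3.44 CPM in marrow and 58.1 ± 8.69 CPM in spleen, with BM-Treg 3 above SP-Treg 2 (log2 fold change -0.40, SE 0.12, edgeR adjusted p = 0.061). Nop14, a processome scaffold and the gene of this role with the highest length-scaled level, was read at 35.9, 35.4, 37.9 and 32.5 CPM in BM-Treg 1 to 4 and 39.3, 39.6, 42.6 and 36.2 CPM in SP-Treg 1 to 4. Its values overlapped between tissues and it was not called (log2 fold change -0.15, SE 0.11, edgeR adjusted p = 0.43). Nob1, the nuclease of the last cut of small subunit rRNA, Noc4l, the partner of Nop14, and the helicase Ddx10 had log2 fold changes of -0.38, -0.24 and -0.15, with overlapping libraries and edgeR adjusted p of 0.23, 0.47 and 0.4.

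In large subunit assembly 11 of 12 genes were below 0, and Rrp1b alone was called. Rrp1b (chr17:32036100-32062865, plus strand), a nucleolar protein related to yeast Rrp1, was read at 21.4, 25.6, 27.002 and 24.7 CPM in BM-Treg 1 to 4 and 40.4, 32.5, 35.4 and 45.5 CPM in SP-Treg 1 to 4. The tissues did not overlap, and the fold change of BM-Treg 4 within batch 3, -0.62, was close to that over all libraries (log2 fold change -0.64, SE 0.13, edgeR adjusted p = 0.0081). Mrto4, which holds the place of a stalk protein on the maturing subunit, had the largest log2 fold change of the genes not called and was read at 5.92, 5.47, 8.24 and 5.77 CPM in BM-Treg 1 to 4 and 8.20, 9.50, 9.46 and 16.5 CPM in SP-Treg 1 to 4. SP-Treg 4 was far above the other spleen libraries, BM-Treg 3 was above SP-Treg 1, and the test was not passed (log2 fold change -0.78, SE 0.24, edgeR adjusted p = 0.058). The GENCODE M21 annotation names 2 pseudogenes of Mrto4, so that its expected counts are uncertain as well. Gnl3, nucleostemin, a GTPase abundant in dividing cells, was read at 7.35, 10.8, 12.7 and 12.5 CPM in BM-Treg 1 to 4 and 13.5, 14.4, 19.3 and 21.5 CPM in SP-Treg 1 to 4. Its libraries did not overlap, with a wide spread in both tissues (log2 fold change -0.66, SE 0.21, edgeR adjusted p = 0.059). Ebna1bp2, an early assembly factor and the gene of this role with the highest length-scaled level, was read at 30.98, 35.4, 34.4 and 36.6 CPM in BM-Treg 1 to 4 and 39.997, 39.4, 38.4 and 42.9 CPM in SP-Treg 1 to 4. The spleen was above the marrow in every library, by a small amount (log2 fold change -0.23, SE 0.11, edgeR adjusted p = 0.22).

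Pes1, Bop1 and Wdr12 encode the PeBoW complex, which acts on the rRNA of the large subunit, and their values differed. Pes1 was read at 18.04, 16.7, 18.2 and 16.98 CPM in BM-Treg 1 to 4 and 26.04, 20.5, 23.1 and 23.9 CPM in SP-Treg 1 to 4, without overlap (log2 fold change -0.42, SE 0.13, edgeR adjusted p = 0.057). Wdr12 had 8.15 ± 1.80 CPM in marrow and 11.6 ± 1.57 CPM in spleen (SD, n = 4), with BM-Treg 1 above SP-Treg 2 (log2 fold change -0.51, SE 0.19, edgeR adjusted p = 0.13). Bop1 had 15.03 ± 3.41 CPM in marrow and 14.5 ± 2.74 CPM in spleen and, with 0.04, 1 of the 2 log2 fold changes above 0 (edgeR adjusted p = 0.92). Its values in BM-Treg 4 and SP-Treg 2 were the highest of all 8 libraries, so that neither tissue was the higher throughout. The methyltransferase Nop2 and the assembly factors Nop16, Rrs1 and Nip7 had log2 fold changes from -0.38 (Nip7) to -0.17 (Nop2), and the helicase Ddx18 one of -0.07, none of them called. The lowest edgeR adjusted p of these 5 was 0.23, and their libraries overlapped between the tissues.

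No gene of RNA polymerase I transcription passed the test. Polr1d, a subunit shared with RNA polymerase III, had the highest length-scaled level, and it was read at 66.8, 77.1, 80.1 and 115 CPM in BM-Treg 1 to 4 and 82.4, 83.004, 84.4 and 105 CPM in SP-Treg 1 to 4. BM-Treg 4 was the highest of all libraries and BM-Treg 1 the lowest, and the gene was not called (log2 fold change -0.07, SE 0.15, edgeR adjusted p = 0.82). The catalytic subunit gene Polr1a was read at 53.8 ± 4.44 CPM in marrow and 51.4 ± 3.57 CPM in spleen (SD, n = 4) and had the highest log2 fold change of the 40 genes, 0.07 (SE 0.11, edgeR adjusted p = 0.76). Polr1b, the other catalytic subunit, and Polr1c, the partner of Polr1d, had log2 fold changes of -0.19 and -0.27. Rrn3, which brings the polymerase to its promoter, and Ubtf, which binds ribosomal DNA, had -0.17 and -0.08, and the helicase Ddx21 had -0.26 at 91.1 ± 5.92 CPM in marrow and 109 ± 9.73 CPM in spleen (SD, n = 4). Among these 7 genes the lowest edgeR adjusted p was 0.13, that of Ddx21. Pprc1, a coactivator related to PGC-1 that is known for its part in growth and in mitochondrial genes, was read at 27.6, 28.3, 31.999 and 26.4 CPM in BM-Treg 1 to 4 and 27.9, 37.4, 38.2 and 29.8 CPM in SP-Treg 1 to 4. SP-Treg 2 and 3 were higher than the rest, and Pprc1 was not called (log2 fold change -0.22, SE 0.13, edgeR adjusted p = 0.34).

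**Figure D3:**
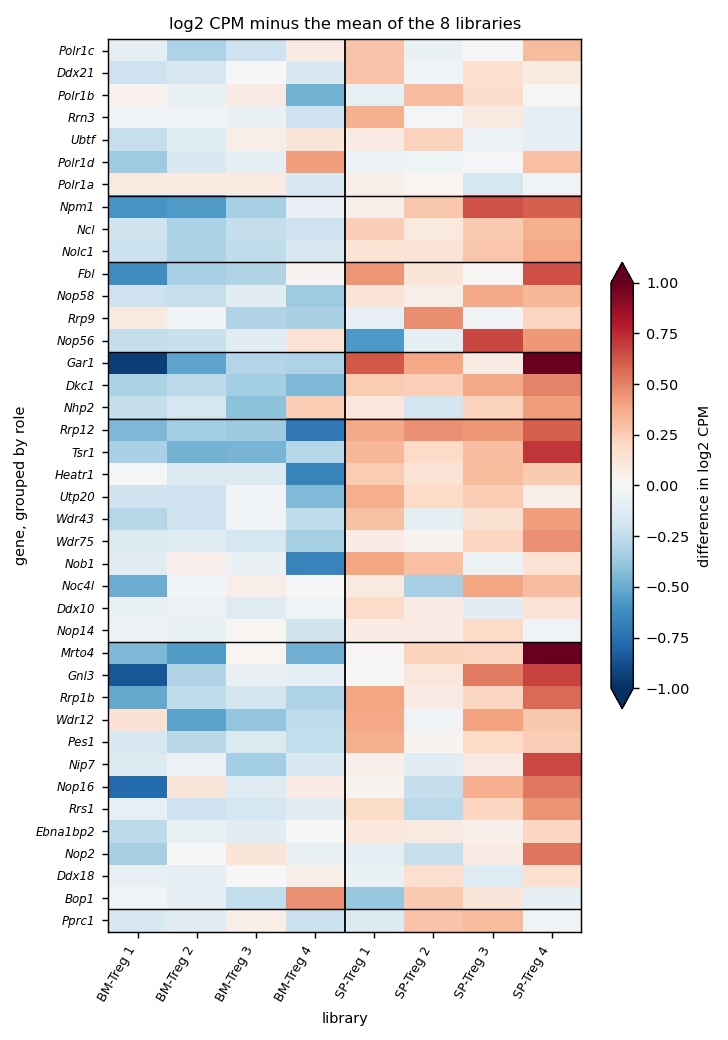
Log2 CPM of each of the 40 genes (rows, grouped by role) in each library (columns), minus the gene's mean over the 8 libraries, on a color scale from -1 to 1. The 4 BM-Treg columns are mostly blue (below the mean) and the 4 SP-Treg columns mostly red, and SP-Treg 4 is the highest library for 20 of the 40 genes.

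The libraries of a tissue differed from each other as well. SP-Treg 4 was the highest library for 20 of the 40 genes and SP-Treg 3 for 8, while the lowest library was BM-Treg 1 for 13 and BM-Treg 4 for 12. The median of the 40 centred log2 CPM values was -0.20, -0.17, -0.13 and -0.18 in BM-Treg 1 to 4 and 0.12, 0.09, 0.20 and 0.32 in SP-Treg 1 to 4, so that each marrow library was below each spleen library. Summed over the 40 genes, CPM was 2089, 2101, 2265 and 2396 in BM-Treg 1 to 4 and 2804, 2809, 3265 and 3373 in SP-Treg 1 to 4. Without Ncl and Npm1, which make up much of this sum, it was between 1154 and 1279 in BM-Treg and between 1401 and 1647 in SP-Treg. The order of the tissues was thus the same with and without the 2 most abundant genes by CPM.

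The share of markers of other cells moved with tissue in part. SP-Treg 1 had the least erythroid and B cell signal. Against SP-Treg 1 as the only spleen library, 34 of the 40 log2 fold changes were below 0. Their median was -0.35, beside -0.36 over all libraries, and that of all genes was -0.01. This comparison rests on 1 spleen library, and the part of other cells in these levels was not tested. For BM-Treg 4 against the spleen libraries of its own batch, 34 of 40 were below 0 with a median of -0.36, where the median of all genes was 0.01. With batch as a term in the fit, 35 of 40 were below 0 with a median of -0.38, and 2 of the 40 genes were called, Dkc1 (edgeR adjusted p = 0.036) and Heatr1 (edgeR adjusted p = 0.023), beside 258 genes in all. That fit rests on BM-Treg 4 as the marrow library of batch 3.

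Calls of single genes depended on single libraries in part. Ncl, Npm1, Dkc1, Gar1, Tsr1, Rrp12 and Rrp1b were called in each of the 8 fits that left out 1 library. Nolc1 was lost without BM-Treg 1, 2 or 3 (edgeR adjusted p of at most 0.073), Nop58 without BM-Treg 1, 2 or 4 or SP-Treg 3 or 4 (at most 0.071), and Fbl without BM-Treg 1, 2 or 3 or SP-Treg 1 or 4 (at most 0.088). Utp20 was kept only without BM-Treg 3 or SP-Treg 4 (at most 0.12 in the others), and Heatr1 was lost in all 8 (0.053 to 0.087). Without BM-Treg 1 or BM-Treg 2, 7 of the 40 genes were called in place of 12. Over all genes, those called lower also went from 673 to 419 without BM-Treg 1 and 393 without BM-Treg 2. DESeq2 on the same genes called 16 lower and 0 higher, where it called 6.87% of all genes lower and 5.87% higher, and limma-voom called 12 and 0, where it called 5.22% lower and 3.87% higher.

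The unit also mattered. On the deposited FPKM values, as log2(FPKM + 1) with limma-trend, 3 genes were called (Gar1, Npm1 and Rrp1b), 37 were below 0, and the median was -0.22, where that of all genes was 0.05. Over all genes that test called 283 lower and 482 higher, against 673 lower and 499 higher with edgeR on counts. After FPKM values were divided by the TMM factors, 6 of the 40 genes were called (Gar1, Ncl, Nop58, Npm1, Rrp12 and Rrp1b), with 434 lower and 354 higher over all genes and a median of -0.28 for the set. On log2 CPM the same test called 12. No setting called any of the 40 genes higher. Between 35 and 39 of them were below 0 in every tested fit over all 40, and 34 in the comparisons without a test, batch 3 on its own and SP-Treg 1 as the only spleen library.

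**Figure D4:**
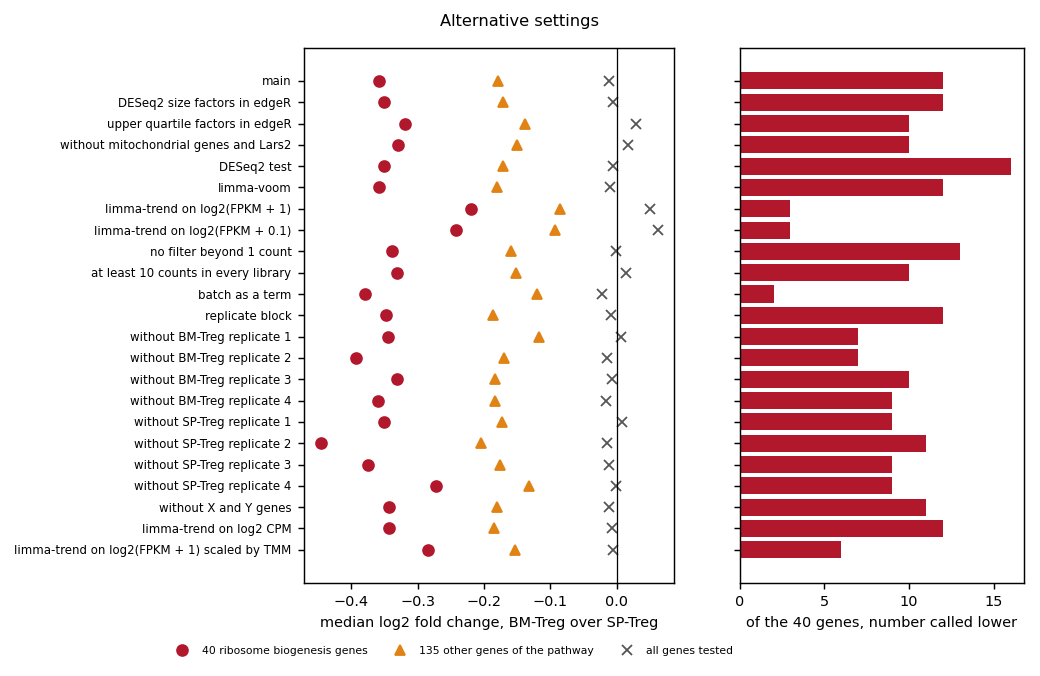
Left, the median log2 fold change of BM-Treg over SP-Treg (x axis) under each setting (y axis) for the 40 genes (circles), 135 other genes of the pathway (triangles) and all genes tested (crosses). Right, the number of the 40 genes called lower under each setting, which was 12 in the reported fit (main), 16 with DESeq2, 3 on FPKM values and 2 with batch as a term. The circles lie left of the crosses under every setting shown.

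Another 135 genes of ribosome biogenesis, listed by function and also with earlier results known, had fold changes with a median closer to 0. Of them 12 were called lower and 1 higher (5.02% and 3.72% of all genes tested), 100 were below 0, and their median log2 fold change was -0.18. Within batch 3, 84 of the 135 were below 0 with a median of -0.11. With batch as a term, 86 were below 0 with a median of -0.12. The tissues did not overlap with the marrow lower in 25 and with the marrow higher in 3 (8.57% and 7.58% of all genes tested). By role, 8 of 56 genes of large subunit assembly, 3 of 46 of small subunit assembly and 1 of 14 of rRNA trimming and decay were called lower, and 0 of 9 of snoRNP assembly. As among the 40 genes, none of 10 further genes of RNA polymerase I transcription was called, with a median of 0.08. Without BM-Treg 1 the count of 12 fell to 2, without BM-Treg 2 or SP-Treg 1 to 5, without SP-Treg 2 to 6 and without SP-Treg 4 to 7.

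Mdn1, the ATPase midasin that strips factors from large subunit precursors, had the smallest p of these genes and was read at 133, 125, 109 and 101 CPM in BM-Treg 1 to 4 and 176, 182, 203 and 221 CPM in SP-Treg 1 to 4. The tissues were well apart (log2 fold change -0.74, SE 0.11, edgeR adjusted p = 0.0013). Trmt112, an activator of several methyltransferases including that of small subunit rRNA, went the other way and was read at 58.3, 62.1, 73.4 and 48.3 CPM in BM-Treg 1 to 4 and 28.4, 33.8, 34.2 and 41.1 CPM in SP-Treg 1 to 4. Every marrow library was above the spleen (log2 fold change 0.82, SE 0.14, edgeR adjusted p = 0.003). Log2 fold changes of the next 8 called genes were -0.76 for Tma16, -0.61 for Mybbp1a, -0.50 for Utp14a, -0.49 for the GTPase Gtpbp4, -0.45 for the helicase Ddx54, -0.45 for Skiv2l2, the helicase that feeds the exosome, -0.44 for Rrp1 and -0.44 for the processome protein Mphosph10. All 8 were without overlap between tissues, and their edgeR adjusted p lay between 0.015 and 0.027.

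Myc itself was lower in BM-Treg, and so were 5 of 16 proliferation genes, all 5 of them Mcm genes. Myc was read at 46.3, 40.3, 52.995 and 44.4 CPM in BM-Treg 1 to 4 and 56.5, 69.1, 136 and 118 CPM in SP-Treg 1 to 4. SP-Treg 3 and 4, which also had the highest sums over the 40 genes, were far above SP-Treg 1 and 2, and the latter were still above the marrow (log2 fold change -1.04, SE 0.26, edgeR adjusted p = 0.041). Mki67, which marks cycling cells, was read at 1212, 800.3, 586 and 1407 CPM in BM-Treg 1 to 4 and 928, 912, 1159 and 1055 CPM in SP-Treg 1 to 4. Its highest and lowest values were both in marrow, and it was not called (log2 fold change -0.02, SE 0.24, edgeR adjusted p = 0.97). All 16 proliferation genes had log2 fold changes below 0 (51.4% of all genes), with a median of -0.37, beside -0.36 for the 40 genes. Those of Ccnb1, Birc5 and Mki67 were close to 0, at -0.001, -0.009 and -0.02. Of the 16, 5 were called lower and 0 higher (5.02% and 3.72% of all genes tested). Within batch 3, 9 of the 16 were below 0 with a median of -0.04, beside 34 of 40 and -0.36 for the ribosome biogenesis genes. The called genes were Mcm2, Mcm3, Mcm5, Mcm6 and Mcm7, which encode subunits of the replication helicase, with log2 fold changes of -0.62, -0.62, -0.94, -0.94 and -0.46. Summed CPM of the 16 genes, much of which is Mki67, was between 1265 and 2398 in BM-Treg and between 1852 and 2264 in SP-Treg. Without Mki67 it was between 679 and 991 in BM-Treg and between 940.1 and 1165 in SP-Treg, where BM-Treg 4 alone was above a spleen library, SP-Treg 2. In the MYC network list, which holds Myc, Max and related factors, 9 genes were tested and Myc alone was called. Of these 9, 5 had log2 fold changes above 0, and the median was 0.02. The part of Myc or of cell division in the levels of the 40 genes was not tested.

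**Figure D5:**
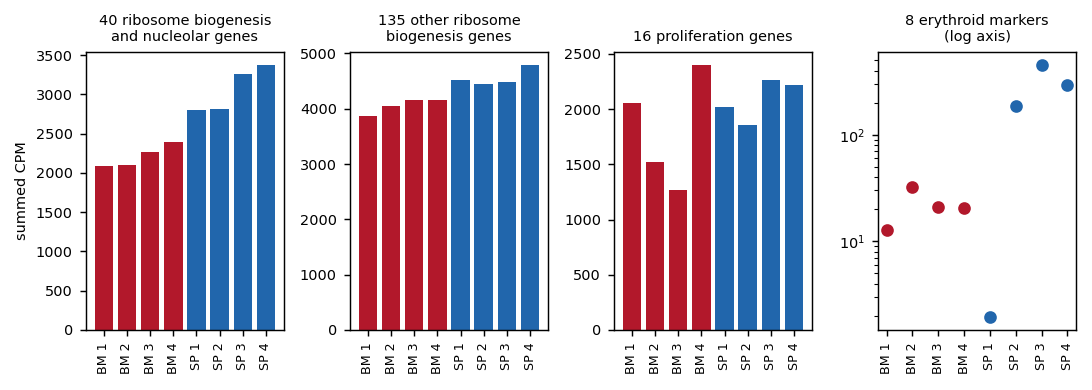
Summed CPM (y axis) in each library (x axis, BM and SP with the replicate number) of the 40 ribosome biogenesis and nucleolar genes, 135 other genes of the pathway, 16 proliferation genes and 8 erythroid markers, the last on a log axis. Sums of the 40 genes are between 2089 and 2396 in BM-Treg and between 2804 and 3373 in SP-Treg, while sums of proliferation genes, much of which is Mki67, overlap and erythroid markers are lowest in SP-Treg 1 and highest in SP-Treg 3.

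Several of these genes carry snoRNA genes within their bounds. By the GENCODE M21 annotation of GRCm38, 7 of the 40 genes (17.5%) held at least 1 snoRNA gene on the same strand, 21 snoRNA genes in all, where 1.75% of 11333 protein coding genes tested did. The hosts were Ncl, Nop56, Nop58, Dkc1, Wdr43, Tsr1 and Gnl3. Of these 7, 4 were called lower (Ncl, Nop58, Dkc1 and Tsr1), and of the other 33 genes 8 were. Their median log2 fold change was -0.48, and that of the other 33 was -0.29, and this difference was not tested. Another feature of position limits some values, since 15 of the 40 genes are overlapped by a gene on the opposite strand and no source used here states that reads were counted by strand. Among the called genes these are Dkc1 (Mpp1), Tsr1 (Srr), Heatr1 (Gm5928) and Rrp1b (Hsf2bp). Srr was tested and not called (log2 fold change -0.18, edgeR adjusted p = 0.68), and Gm5928 and Hsf2bp were below the filter on low counts. Among all overlapping genes that were tested, Parp3 alone was called, and it overlaps Rrp9 (log2 fold change -0.84, edgeR adjusted p = 0.0028).

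For transcripts of the same genes, the fraction of a gene's expected counts that fell on each transcript was compared, with the caution that such estimates are uncertain for transcripts that overlap. Of the 40 genes, 24 had at least 200 counts in every library, and 25 transcripts of 10 of them had a mean share between 10% and 90%. In an exact two-sided permutation test, whose smallest possible p with 4 against 4 libraries is 0.029, 1 transcript reached that p and 0 were below 0.05 after adjustment over the 25. It was ENSMUST00000150745 of Nop56, annotated as a retained intron, with 21.4%, 14.8%, 13.6% and 14.1% of the gene's counts in BM-Treg 1 to 4 and 7.65%, 9.96%, 12.7% and 12.2% in SP-Treg 1 to 4 (adjusted p = 0.24, exact permutation test). BM-Treg 1 was the highest, and the gap between the tissues was small. The protein coding transcript of Wdr75, ENSMUST00000027139, had 36.9% ± 17.2 in BM-Treg and 68.1% ± 11.7 in SP-Treg (SD, n = 4, exact permutation p = 0.057), with BM-Treg 4 above SP-Treg 3.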

How the data were processed

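RNA from FoxP3+ cells was amplified by SPIA (NuGEN) and read from 1 end for 80 nt. The authors deposited, for genes and for transcripts, expected counts (read numbers as estimated by the counting program, not always whole, without normalization) and FPKM values, which the authors scaled by transcript length and depth. The submitters' processing notes name cutadapt 1.9, STAR 2.5.2a, RSEM 1.2.30 and GRCm38, and the annotation release is not given in the sources used here. Amplification without molecular identifiers means that reads are not independent molecules. Each SD given here is the variation among libraries. Each SE was computed from the log2 fold change and the F statistic of edgeR's test, which also draws on the spread of other genes. Duplicates were searched for and none was found (lowest chi-square per degree of freedom 14.6). All 8 libraries were used.

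Expected counts were rounded to whole numbers, filtered by edgeR's default on the groups, TMM normalized and fitted with edgeR's robust quasi-likelihood model (no covariate), with Benjamini-Hochberg adjustment over all genes tested and a threshold of 0.05. The study names no test for these data. The software was edgeR 4.0.16, DESeq2 1.42.0 and limma 3.58.1 in R 4.3.3, and the tests were tried on simulated data. A prior count of 2 was added for log2 CPM. The genes, lists and tests were chosen with earlier results of these data known.

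Values in every library are given for called genes (up to 12), the gene of each role with the highest mean FPKM, the 5 genes with the largest absolute log2 fold change at a mean of at least 5 CPM, and genes without overlap that were not called. Of the other genes of the pathway the 10 with the smallest p among those called are named, and of the MYC network and proliferation lists Myc, Mki67 and called genes. Marker lists of neutrophils, plasma cells, plasmacytoid dendritic cells, monocytes and progenitors were also summed. Their summed CPM in BM-Treg and SP-Treg was between 1.32 and 10.0 and between 0.216 and 17.6 (neutrophil), 0.251 and 1.30 and 0.935 and 27.8 (plasma cell, without Prdm1 and Xbp1, which were read at 51.4 CPM or more in every library), 65.4 and 66.8 and 37.0 and 80.1 (plasmacytoid dendritic cell), 11.6 and 15.7 and 4.68 and 22.3 (monocyte), and 0.418 and 2.04 and 0.791 and 3.03 (progenitor, without Ly6a, which was read at 333 CPM or more). The plasmacytoid dendritic cell sum is mostly Ccr9, Irf8, Tcf4 and Bst2, and Siglech was at most 0.823 CPM. Coordinates of genes are those of the deposited tables, and all 40 identifiers are in GENCODE M21 (GRCm38), 20 with identical coordinates. Alternatives were other size factors, tests, units and filters, batch as a term, batch 3 on its own, a block for the replicate number, fits without each of the 8 libraries, other thresholds, and no genes on the X and Y chromosomes.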

Additional observations from a re-analysis of the deposited data

Results flagged for a closer look

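In 80 groups of 4 libraries (40 genes in each tissue), 4 had 1 library far from the other 3 by Dixon's test, and chance alone flags about 4 of 80. Polr1a in BM-Treg 4 was at 47.2 CPM, where the other marrow libraries were between 55.7 and 56.3. BM-Treg 4 is the marrow library of batch 3, and Polr1a in the spleen libraries of that batch was between 46.5 and 54.7 CPM. Polr1d in SP-Treg 4 was at 105 CPM, where the other spleen libraries were between 82.4 and 84.4. Mrto4 was at 8.24 CPM in BM-Treg 3, where the others were between 5.47 and 5.92, and at 16.5 CPM in SP-Treg 4, where the others were between 8.20 and 9.50. The causes were not tested.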

How the results depend on the processing

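The median of the 40 genes, -0.36, was below the median of all genes under every alternative run. It was -0.22 and -0.24 on log2(FPKM + 1) and log2(FPKM + 0.1), -0.28 on FPKM scaled by TMM, an alternative chosen after seeing the data, and between -0.45 and -0.27 with 1 library left out. The 12 genes called lower became 3 and 3 on FPKM, 6 on FPKM scaled by TMM, 2 with batch as a term, 6 at an adjusted p threshold of 0.01, 1 with an added minimum of 1 on the absolute log2 fold change, and between 7 and 11 with 1 library left out. The 12 other genes of the pathway called lower became 2 and 2 on FPKM, 2 with batch as a term, 1 at the threshold of 0.01, 0 with that minimum, and between 2 and 12 with 1 library left out. Their median of -0.18 became -0.086 and -0.092 on FPKM. The 1 called higher became 0 with batch as a term and with that minimum. All called genes were 1172, and 765 and 728 on FPKM, 258 with batch as a term, 427 at 0.01, 310 with that minimum, and between 690 and 1048 with 1 library left out, lowest without BM-Treg 2. The count of 1 transcript whose shares did not overlap between tissues ran from 1 to 5, with no test where a library was left out. Of 263 values of the 12 genes under alternatives 194 stayed called and 0 reversed direction, and of 616 values of the other 28, 9 became called. The causes were not tested.

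Same-numbered libraries of the tissues correlated at -0.11, 0.06, -0.18 and 0.04 in their deviations from tissue means. Libraries with different numbers correlated between -0.07 and 0.19. By label, batch and sex also differ among the marrow libraries, so that these correlations cannot show whether same-numbered libraries share animals. With the replicate number as a block, 948 genes were called, among them 12 of the 40, with Gnl3 in place of Heatr1, and the median was -0.35. Counts per gene and library were between 33 and 13479 and SE between 0.10 and 0.25. Differences well above these errors were still not called with 4 libraries in each tissue. An example is Mrto4 (log2 fold change -0.78, SE 0.24, edgeR adjusted p = 0.058). A gene that was not called is therefore not shown to be unchanged.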
